A study of Homo sapiens with 12 samples.

Results

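The interferon response and antigen presentation genes examined here are 47 genes, taken by symbol from the 60670 genes of the count table: 5 transcription factors, 9 IFI and IFIT genes, 7 IFITM and other antiviral effector genes, 6 genes of RNA sensing and oligoadenylate synthesis, 9 genes of the ISG15 and ubiquitin system, 4 PARP and nuclear body genes, and 7 genes of antigen processing and HLA class I. They were measured by RNA-seq in MDA-MB-453, an established human breast cancer cell line without estrogen receptor alpha. The 6 DHT libraries came from cells given dihydrotestosterone (DHT), a potent natural androgen, at 10 nM for 6 h, and the 6 Vehicle libraries from cells given 0.001% ethanol for the same time, after 72 h of growth of both groups in serum-containing medium. Per the labels, the replicates of a group were consecutive passages of this one line, so p-values measure the spread between passages and not between lines or tumours. The comparison asked which of these genes androgen changed, and whether a single culture set the difference.

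Interferons are secreted proteins that signal through paired receptor chains, Janus kinases and STAT proteins. IRF9 and STAT2 form part of ISGF3, the complex that binds the interferon-stimulated response element (ISRE) of antiviral genes, and many of these genes keep a low activity in epithelial cells without any added interferon. Their products bind or degrade viral RNA, block virus entry and release, attach the ubiquitin-like protein ISG15 to other proteins, or cut and load peptides onto HLA class I molecules for display to T cells.

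Promoters of 5 of the 6 members that passed the test in either fit are shown because the ISRE is the sequence through which ISGF3 acts. Of the 47 members, 39 had an entry in the RefSeq promoter set (GRCh38.p14, from 250 bases before to 50 bases after the RefSeq gene start, which can differ from the start in the annotation used for gene coordinates). OAS2 is among the 8 without an entry. An ISRE core, GAAANNGAAA or its reverse complement TTTCNNTTTC, was found in 23 of these 39 (59.0%) and in 996 of all 27305 promoters (3.65%). A GAS core, TTCNNNGAA, the element bound by STAT dimers, was found in 9 of 39 (23.1%, against 7.88% of all promoters), and one repeat of the androgen response element, AGAACA or TGTTCT, in 4 of 39 (10.3%, against 14.9%). Among the 5 promoters below, the IFIT1 promoter held 2 ISRE cores and the TRIM14 promoter 1, in capitals. Those of SP110, OAS1 and IRF9 held no match to this core in this window. The pattern asks for 2 bases between the GAAA repeats. In the OAS1 and SP110 windows GAAA repeats stand with 1 base between them, and these were not counted. No match is therefore not the absence of an element. The IFIT1 window is chr10:89392373-89392672 on the plus strand, the TRIM14 window chr9:98119173-98119472 on the minus strand, the SP110 window chr2:230225587-230225886 on the minus strand, the OAS1 window chr12:112906712-112907011 on the plus strand and the IRF9 window chr14:24161015-24161314 on the plus strand. A match is a match of letters and no measurement of binding.
IFIT1: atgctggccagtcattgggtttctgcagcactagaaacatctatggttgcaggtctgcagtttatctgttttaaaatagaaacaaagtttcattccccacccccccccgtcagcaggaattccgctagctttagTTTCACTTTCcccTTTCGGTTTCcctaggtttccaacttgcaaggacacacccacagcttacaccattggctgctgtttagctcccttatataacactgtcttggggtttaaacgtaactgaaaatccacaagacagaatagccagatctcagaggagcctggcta
TRIM14: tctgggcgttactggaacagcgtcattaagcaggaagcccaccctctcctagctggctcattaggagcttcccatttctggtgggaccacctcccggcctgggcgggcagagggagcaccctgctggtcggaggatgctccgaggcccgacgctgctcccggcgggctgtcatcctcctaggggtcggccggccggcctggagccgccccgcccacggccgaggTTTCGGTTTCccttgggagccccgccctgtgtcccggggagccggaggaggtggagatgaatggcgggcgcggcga
SP110: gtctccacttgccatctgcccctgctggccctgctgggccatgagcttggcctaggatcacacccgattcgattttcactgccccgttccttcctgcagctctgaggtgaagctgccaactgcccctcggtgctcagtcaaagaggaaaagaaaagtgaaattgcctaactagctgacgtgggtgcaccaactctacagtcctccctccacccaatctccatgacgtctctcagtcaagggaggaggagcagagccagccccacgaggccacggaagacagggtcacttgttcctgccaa
OAS1: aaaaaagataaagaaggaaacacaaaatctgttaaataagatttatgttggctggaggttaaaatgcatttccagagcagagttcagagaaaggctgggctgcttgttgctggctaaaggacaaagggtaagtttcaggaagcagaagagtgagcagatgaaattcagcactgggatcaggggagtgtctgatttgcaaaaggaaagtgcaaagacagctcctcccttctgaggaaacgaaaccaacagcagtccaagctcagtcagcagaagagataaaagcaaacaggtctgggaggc
IRF9: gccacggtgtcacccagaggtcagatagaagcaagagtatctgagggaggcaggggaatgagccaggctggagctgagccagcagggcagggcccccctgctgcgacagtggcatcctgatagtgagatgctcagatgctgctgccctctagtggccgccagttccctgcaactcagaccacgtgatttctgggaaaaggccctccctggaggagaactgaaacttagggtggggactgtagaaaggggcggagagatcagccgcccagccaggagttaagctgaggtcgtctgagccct

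Library totals ran from 9486951 to 25678781 estimated counts in DHT libraries and from 4346465 to 16963880 in Vehicle libraries, with Vehicle replicate 6 the shallowest of all, where 1 count was worth 0.23 CPM, the count scaled to a fixed library total. Mitochondrial genes took 3.03 to 4.0% of the counts in DHT libraries and 3.09 to 8.07% in Vehicle libraries, with the highest share in Vehicle replicate 5. The 2 replicate 2 libraries deviated from their group means together (correlation 0.875 over genes). FKBP5, a chaperone gene that androgens are known to induce, had 244, 362 and 424 CPM (lowest, median, highest) in DHT libraries and 56.9, 82.5 and 102 CPM in Vehicle libraries (log2 fold change 2.09, SE 0.165, edgeR adjusted p = 6.79e-06). All 9 luminal epithelial markers were detected, with summed levels of 3560 to 6890 CPM in DHT libraries and 4750 to 9680 CPM in Vehicle libraries. Of these 9, edgeR called 3 lowered with group as the one term (0.880% of all genes tested were). With replicate number as a block it called 6 lowered (3.19% of all genes tested were). Their median log2 fold change with group as the one term was -0.545. The 14 leukocyte markers summed to 1.27 to 2.09 CPM in DHT libraries and 0.885 to 1.92 CPM in Vehicle libraries, with CD3E, CD3D and MS4A1 at 0 in all 12. The 5 markers of plasmacytoid dendritic cells summed to 2.08 to 3.49 CPM in DHT libraries and 3.42 to 4.6 CPM in Vehicle libraries, with LILRA4, CLEC4C and GZMB at 0 in all 12. The 5 endothelial markers summed to 0.0876 to 0.745 CPM in DHT libraries and 0.111 to 1.55 CPM in Vehicle libraries. The 7 fibroblast markers summed to 60 to 75.9 CPM in DHT libraries and 76.5 to 111 CPM in Vehicle libraries, most of it COL1A1, and the groups did not overlap. Of the 3 fibroblast markers tested, edgeR called 0 lowered with group as the one term and 3 with the block (3.19% of all genes tested were). Their median log2 fold change with group as the one term was -1.10. The part of these lists and of the mitochondrial share in the results below was not tested.

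DHT lowered SP110 and raised TRIM14. These 2 were the members that passed edgeR's quasi-likelihood test at an adjusted p under 0.05 with group as the one term, and 41 of the 43 members tested did not pass. The share of all 16355 genes tested that were called was 1.96% raised and 0.880% lowered, so 1 of 43 in each direction is not far from the share over all genes. The members lay to the low side together: 41 of 43 had a log2 fold change below 0, against 58.2% of all genes tested, and their median log2 fold change was -0.29 against -0.05 for all genes. The members share the same 12 libraries and were chosen with earlier results of these data known, so this is a description and no test. Without Vehicle replicate 1 the member median was -0.10. At an unadjusted p under 0.05, 1 member was higher and 2 were lower in DHT libraries, and DESeq2 and limma-voom called the same number of members, 1 raised and 1 lowered. With the replicate number added as a block, TRIM14 was raised and 5 members were lowered: SP110, IFIT1, OAS1, OAS2 and IRF9, while 37 did not pass. DESeq2 with the block called 4 of these 5, without OAS2 (DESeq2 adjusted p = 0.111). The edgeR fit with the block called 4.67% of all genes raised and 3.19% lowered. At an unadjusted p under 0.05 it put 20 members lower and 2 higher, against 1708 lower and 1781 higher among all genes. The labels do not say that a number marks the same passage in both groups, and the libraries numbered 5 deviated in opposite directions (correlation -0.238), so the blocked values are given beside the others and not in their place.

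**Figure D1:**
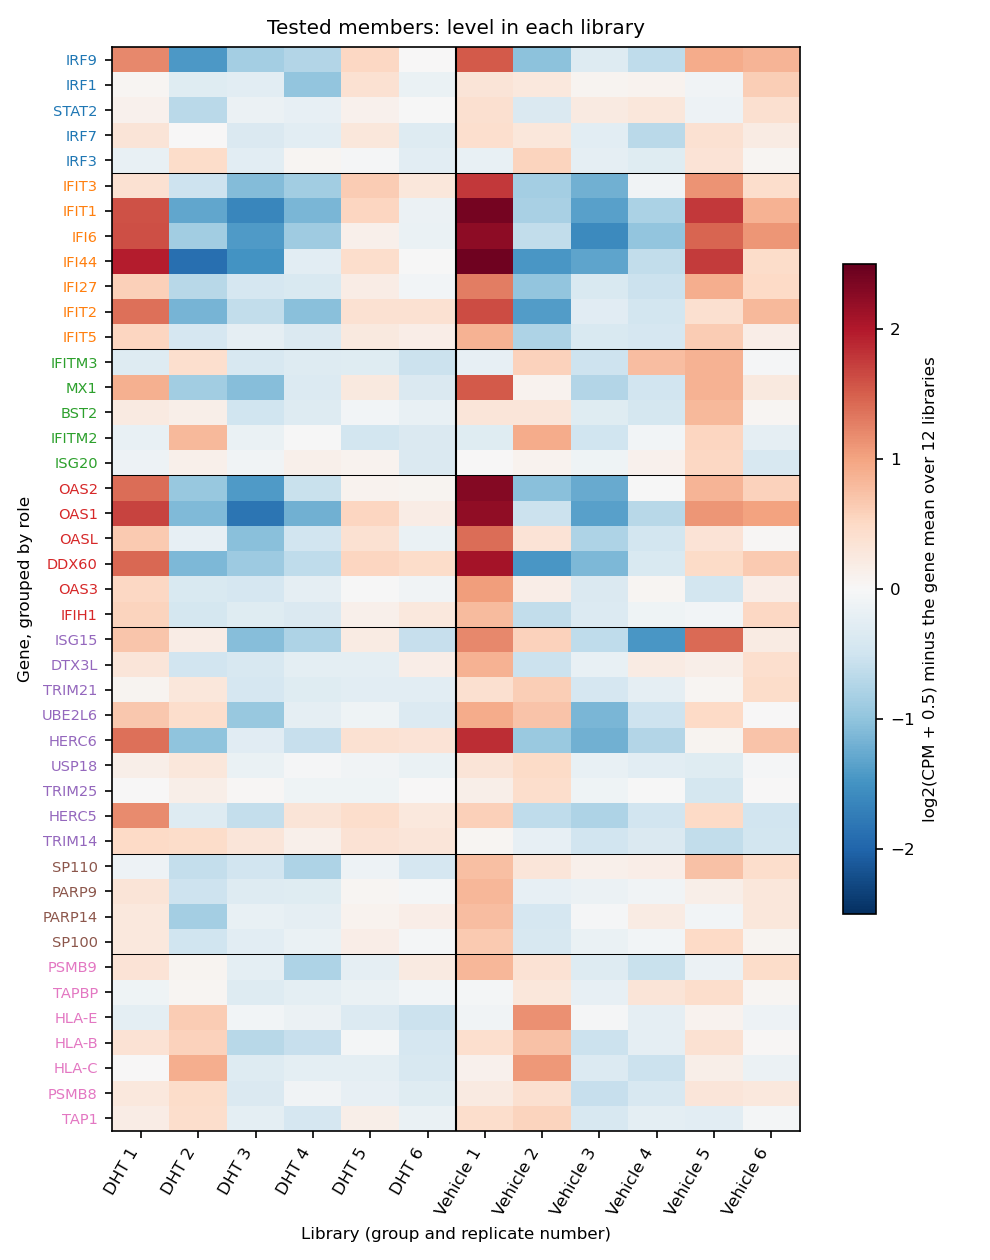
Level of each of the 43 tested members (rows, grouped by role, role colours on the gene names) in the 6 DHT libraries (left of the line) and the 6 Vehicle libraries (right), as log2(CPM + 0.5) minus the gene's mean over the 12 libraries. Replicate 1 is red for most interferon-stimulated genes on both sides, replicates 3 and 4 are mostly blue on both sides, and replicate 2 is red for the HLA genes.

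**Figure D2:**
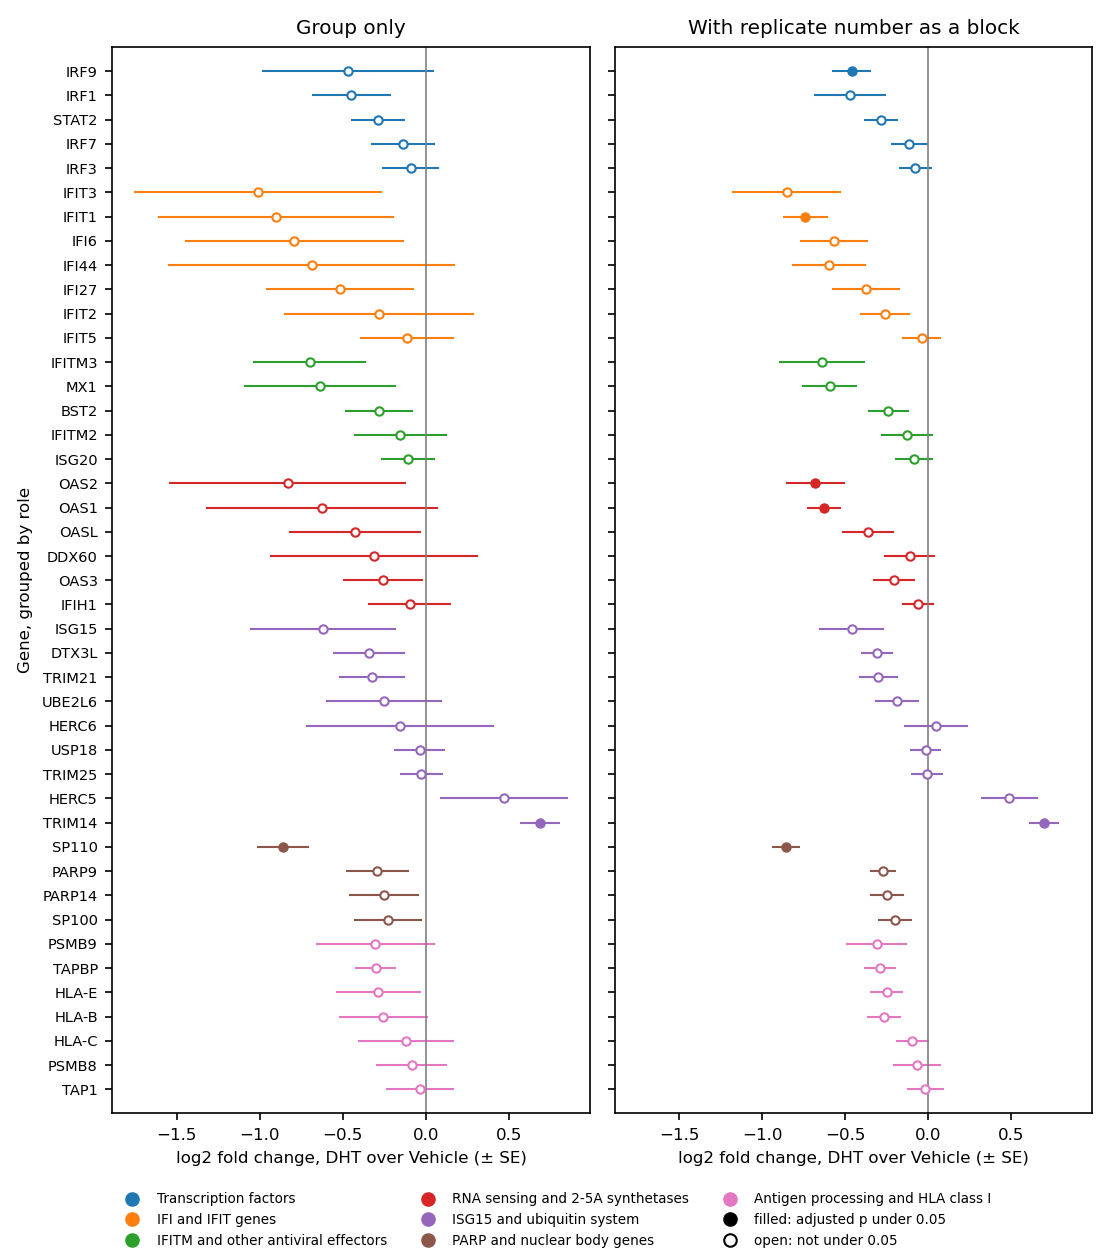
Log2 fold change, DHT over Vehicle, with its SE for each of the 43 tested members, with group alone (left panel) and with replicate number as a block (right panel); filled points have an edgeR adjusted p under 0.05. On the left 41 points lie below 0 and 2 are filled, and on the right 6 are filled with shorter error bars.

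SP110 encodes an interferon-induced protein of nuclear bodies, with a bromodomain. SP110 (ENSG00000135899, chromosome 2, 230165186 to 230225729 on GRCh38) had 17.9, 22.3 and 28.1 CPM in DHT libraries and 33.7, 40.0 and 52.4 CPM in Vehicle libraries (lowest, median, highest). Every DHT library lay below every Vehicle library, a pattern that 1 of the 43 members and 1.00% of all genes tested showed. The log2 fold change was -0.86 (SE 0.155, edgeR adjusted p = 0.00702), and -0.86 with the block (SE 0.082, edgeR adjusted p = 0.000184). Within replicate numbers 1 to 6 the log2 differences were -0.89, -0.91, -0.61, -0.93, -0.86 and -0.86, so no number carried the fall. Genes on the other strand share 23.4% of its annotated exon bases, and each of these neighbours stayed under 1 CPM in every library. SP100, PARP9 and PARP14, the other PARP and nuclear body genes, did not pass. SP100, a protein of the same nuclear bodies, had a log2 fold change of -0.23 (edgeR adjusted p = 0.815). The log2 fold change of PARP9, an ADP-ribosyltransferase family member that works with the ubiquitin ligase DTX3L, was -0.29 (edgeR adjusted p = 0.673) and that of PARP14 was -0.25 (edgeR adjusted p = 0.79). SP110, SP100 and PARP9 were lower in the DHT library at all 6 replicate numbers.

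TRIM14 encodes an adaptor of the mitochondrial antiviral signalling platform, on the outer membrane of mitochondria. TRIM14 (ENSG00000106785, chromosome 9, 98069275 to 98119222) had 47.1, 54.2 and 61.0 CPM in DHT libraries and 27.9, 32.1 and 44.0 CPM in Vehicle libraries. All DHT libraries lay above all Vehicle libraries, as for 2.29% of all genes tested. The log2 fold change was 0.69 (SE 0.122, edgeR adjusted p = 0.00614) and 0.70 with the block (SE 0.09, edgeR adjusted p = 0.00119). The log2 differences within replicate numbers 1 to 6 were 0.47, 0.67, 0.77, 0.5, 0.98 and 0.75. NANS, which shares 7.7% of the annotated exon bases of TRIM14 on the other strand, had a log2 fold change of -0.08 (edgeR adjusted p = 0.947).

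Among the other genes of the ISG15 and ubiquitin system, HERC5, the main ligase that attaches ISG15 to its targets, was the one further member with a log2 fold change above 0. HERC5 had 1.54, 3.27 and 6.51 CPM in DHT libraries and 1.31, 1.7 and 4.16 CPM in Vehicle libraries (log2 fold change 0.47, SE 0.386, edgeR adjusted p = 0.78; 0.49 with the block, edgeR adjusted p = 0.119). Its groups overlapped, and the DHT library was the higher one at 5 of 6 replicate numbers. ISG15, the ubiquitin-like modifier itself, had 21.0, 39.9 and 72.1 CPM in DHT libraries and 15.8, 58.7 and 119 CPM in Vehicle libraries (log2 fold change -0.62, SE 0.438, edgeR adjusted p = 0.715). The difference ran the other way at replicate 4, by 0.7, while at replicate 5 it was -1.2. UBE2L6, the conjugating enzyme for ISG15, had a log2 fold change of -0.25, USP18, the protease that removes ISG15 and dampens receptor signalling, -0.04, and HERC6 -0.15. The ligase genes DTX3L and TRIM21 had log2 fold changes of -0.34 and -0.32. TRIM25, a ligase that activates RIG-I, had 71.8, 78.2 and 85.7 CPM in DHT libraries and 57.0, 77.4 and 105 CPM in Vehicle libraries (log2 fold change -0.03, SE 0.129, edgeR adjusted p = 0.977). In this role 1 of 9 was raised and 0 were lowered with edgeR, DESeq2 and limma-voom alike, with and without the block. At an unadjusted p under 0.05 in edgeR, 1 was higher and 0 were lower without the block. With it, 2 were higher and 3 lower.

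None of the 5 transcription factor genes passed without the block, and at an unadjusted p under 0.05 the count was also 0 with edgeR, DESeq2 and limma-voom. With the block, IRF9 was lowered. IRF9, the DNA-binding subunit of ISGF3, had 3.27, 7.63 and 22.7 CPM in DHT libraries and 4.52, 12.7 and 28.9 CPM in Vehicle libraries (log2 fold change -0.47, SE 0.516, edgeR adjusted p = 0.861; -0.46 with the block, SE 0.117, edgeR adjusted p = 0.0392). Replicate 1 was the highest and replicate 2 the lowest in both groups, and the DHT library was lower at all 6 numbers, with log2 differences between -0.84 and -0.09. A same-strand gene record shares 42.2% of the annotated exon bases of IRF9, and it had a median of 1.12 CPM in DHT libraries and 0.973 CPM in Vehicle libraries. STAT2, the partner of IRF9, had 36.5, 55.1 and 63.5 CPM in DHT libraries and 45.6, 70.1 and 77.8 CPM in Vehicle libraries (log2 fold change -0.29, SE 0.163, edgeR adjusted p = 0.575). IRF1, an activator induced by type II interferon, had 1.14, 2.29 and 3.69 CPM in DHT libraries and 2.56, 3.18 and 4.49 CPM in Vehicle libraries (log2 fold change -0.45, edgeR adjusted p = 0.527). STAT2 and IRF1 were lower with DHT at 5 of 6 numbers and higher at replicate 5. IRF3, which starts interferon transcription after RNA or DNA is sensed, had 56.9, 63.9 and 93.9 CPM in DHT libraries and 55.7, 65.8 and 101 CPM in Vehicle libraries (log2 fold change -0.09, edgeR adjusted p = 0.933). IRF7, which amplifies it, had 83.6, 98.8 and 134 CPM in DHT libraries and 67.4, 127 and 143 CPM in Vehicle libraries (log2 fold change -0.14, edgeR adjusted p = 0.902).

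The IFI and IFIT genes had the lowest median log2 fold change of the 7 roles, -0.69 over the 7 tested. None passed without the block, with edgeR, DESeq2 or limma-voom, nor at an unadjusted p under 0.05. IFIT1, whose product binds viral RNA at its cap, passed with the block. IFIT1 (ENSG00000185745, chromosome 10, 89392546 to 89406487) had 5.55, 12.2 and 55.6 CPM in DHT libraries and 6.79, 21.9 and 98.4 CPM in Vehicle libraries (log2 fold change -0.90, SE 0.708, edgeR adjusted p = 0.762; -0.74 with the block, SE 0.135, edgeR adjusted p = 0.00789). The groups overlapped over most of their range, since the highest library was 10.0 times the lowest in DHT cells and 14.5 times in Vehicle cells. Yet within replicate numbers 1 to 6 the log2 differences were -0.82, -0.49, -0.27, -0.35, -1.23 and -1.0, all below 0. IFIT3, a binding partner of IFIT1, had the lowest log2 fold change of the members at -1.01 (SE 0.747, edgeR adjusted p = 0.739), and -0.85 with the block (edgeR adjusted p = 0.158). IFIT3 was near the detection floor, with 0.114, 0.751 and 1.52 CPM in DHT libraries and 0.0707, 1.01 and 3.97 CPM in Vehicle libraries. IFI6, a mitochondrial and endoplasmic reticulum protein, had 13.5, 26.3 and 113 CPM in DHT libraries and 11.8, 51.7 and 176 CPM in Vehicle libraries (log2 fold change -0.79, edgeR adjusted p = 0.786). The difference for IFI6 was -1.35 at replicate 5 and -1.28 at replicate 6, but 0.19 at replicate 3 and 0.09 at replicate 4. IFI27 had 1.12, 1.74 and 3.46 CPM in DHT libraries and 0.816, 2.34 and 5.81 CPM in Vehicle libraries (log2 fold change -0.52, edgeR adjusted p = 0.8). IFI44, IFIT2 and IFIT5 had log2 fold changes of -0.69, -0.28 and -0.11. IFI35 and IFI44L stayed under 1 CPM in every library and were not tested.

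OAS1 and OAS2 were lowered with the block in edgeR and limma-voom, and OAS1 alone of the 6 genes in DESeq2. Their products make oligoadenylates that switch on RNase L, which cuts RNA. OAS1 (ENSG00000089127, chromosome 12, 112906783 to 112933222) had 1.77, 5.94 and 25.4 CPM in DHT libraries and 2.62, 10.3 and 37.1 CPM in Vehicle libraries (log2 fold change -0.62, SE 0.698, edgeR adjusted p = 0.863; -0.63 with the block, SE 0.103, edgeR adjusted p = 0.00455). Although the highest library was 14.4 times the lowest in DHT cells and 14.2 times in Vehicle cells, the log2 differences within replicate numbers 1 to 6 were close together, at -0.54, -0.57, -0.46, -0.52, -0.57 and -0.82. OAS2 (chromosome 12, 112978395 to 113011723), in the same gene cluster, had 0.456, 1.71 and 6.21 CPM in DHT libraries and 0.566, 2.69 and 12 CPM in Vehicle libraries (log2 fold change -0.83, SE 0.715, edgeR adjusted p = 0.8; -0.68 with the block, SE 0.176, edgeR adjusted p = 0.0419). It was lower at 5 of 6 numbers and 0.09 higher at replicate 2. OAS3 had medians of 70.9 CPM in DHT libraries and 85.0 CPM in Vehicle libraries (log2 fold change -0.26, edgeR adjusted p = 0.819), and OASL, an inactive relative that aids RNA sensing, 3.42 CPM in DHT libraries and 4.59 CPM in Vehicle libraries (log2 fold change -0.43, edgeR adjusted p = 0.821). IFIH1, the sensor MDA5 of long double-stranded RNA, and the helicase gene DDX60 had log2 fold changes of -0.10 and -0.31. Of these 6 genes, 0 were called without the block by edgeR, DESeq2 or limma-voom, and 0 had an unadjusted p under 0.05. The authors' deposited table lists OAS1 at -0.60 (adjusted p = 0.0251), SP110 at -0.89 (adjusted p = 7.8e-05) and TRIM14 at 0.70 (adjusted p = 0.00169) as changed, and in the authors' deposited table IFIT1 (adjusted p = 0.0602), OAS2 (adjusted p = 0.054) and IRF9 (-0.33, adjusted p = 0.747) are not. That table covers 14559 genes of this same series, and the labels state no model for it. It is therefore no independent test of either fit.

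**Figure D3:**
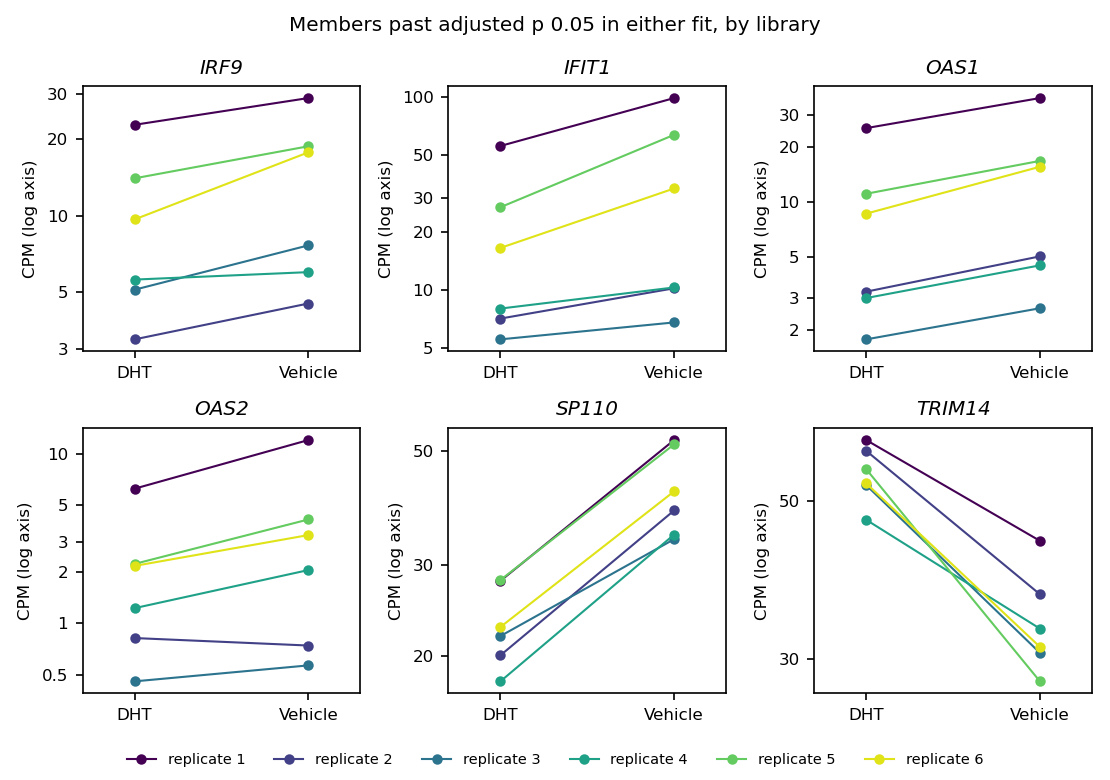
CPM (log axis) of the 6 members with an edgeR adjusted p under 0.05 in either fit, in DHT libraries (left in each panel) and Vehicle libraries (right), with libraries of the same replicate number joined. For IRF9, IFIT1, OAS1 and OAS2 the lines are spread over a wide range and most run upward to Vehicle, whereas for SP110 and TRIM14 the groups do not overlap.

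The IFITM and other antiviral effector genes gave no call without the block with edgeR, DESeq2 or limma-voom, and 0 of 5 at an unadjusted p under 0.05; with the block, edgeR and DESeq2 called 0, limma-voom called MX1 lowered, and 2 were lower at an unadjusted p under 0.05 in edgeR. MX1, a GTPase that traps viral ribonucleoproteins, had a median of 2.91 CPM in DHT libraries and 4.41 CPM in Vehicle libraries (log2 fold change -0.64, edgeR adjusted p = 0.722; -0.59 with the block, edgeR adjusted p = 0.0562 and limma-voom adjusted p = 0.0465). BST2, or tetherin, which holds budding virus at the cell surface, had 207, 266 and 341 CPM in DHT libraries and 214, 330 and 514 CPM in Vehicle libraries (log2 fold change -0.28, SE 0.205, edgeR adjusted p = 0.732). Per transcript length BST2 was the most abundant member, with a median of 769 TPM, a count scaled for length and library total, in DHT libraries and 855 TPM in Vehicle libraries, followed by HLA-C with a median of 274 TPM in DHT libraries and 279 TPM in Vehicle libraries. IFITM3, a membrane protein that blocks virus fusion, had 0.752, 0.962 and 1.96 CPM in DHT libraries and 0.772, 1.75 and 2.85 CPM in Vehicle libraries (log2 fold change -0.70, edgeR adjusted p = 0.456). IFITM2 and the exonuclease gene ISG20 had log2 fold changes of -0.15 and -0.11. IFITM1, which shares exon bases with IFITM2, and XAF1 stayed under 1 CPM in every library and were not tested. The IFITM genes are close paralogs whose counts were not whole in most libraries, so the division of reads among them is uncertain.

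No gene of antigen processing or HLA class I passed. Of the 7 genes, 0 were called raised or lowered by edgeR, DESeq2 or limma-voom, with or without the block; at an unadjusted p under 0.05 edgeR put 1 lower without the block (TAPBP) and 3 lower with it. Their median log2 fold change was -0.25. TAPBP, or tapasin, the chaperone that brings HLA class I to the peptide transporter, had 52.3, 59.8 and 68.4 CPM in DHT libraries and 57.3, 74.7 and 89.8 CPM in Vehicle libraries (log2 fold change -0.30, SE 0.123, edgeR adjusted p = 0.317; -0.29 with the block, edgeR adjusted p = 0.106). HLA-B had 7.71, 10.9 and 19.4 CPM in DHT libraries and 8.66, 15.0 and 21.7 CPM in Vehicle libraries (log2 fold change -0.25, SE 0.269, edgeR adjusted p = 0.853; -0.27 with the block, edgeR adjusted p = 0.151). TAPBP and HLA-B were lower with DHT at all 6 replicate numbers, although their groups overlapped. HLA-C had 179, 200 and 445 CPM in DHT libraries and 162, 233 and 501 CPM in Vehicle libraries (log2 fold change -0.12, SE 0.288, edgeR adjusted p = 0.951). HLA-E, a class I molecule read by natural killer cells, had 25.3, 32.2 and 57.8 CPM in DHT libraries and 31.6, 35.5 and 82.2 CPM in Vehicle libraries (log2 fold change -0.29, SE 0.255, edgeR adjusted p = 0.813; -0.25 with the block, edgeR adjusted p = 0.179). In HLA-B, HLA-C and HLA-E alike, the replicate 2 libraries were the highest of both groups. PSMB8 and PSMB9, catalytic subunits of the immunoproteasome, had log2 fold changes of -0.08 (edgeR adjusted p = 0.954) and -0.30 (edgeR adjusted p = 0.877). PSMB8 had 7.0, 8.26 and 12.8 CPM in DHT libraries and 6.01, 10.9 and 12.2 CPM in Vehicle libraries, and PSMB9 had 0.438, 1.03 and 1.55 CPM in DHT libraries and 0.59, 1.25 and 2.34 CPM in Vehicle libraries. TAP1, a chain of the peptide transporter, had 13.0, 17.4 and 23.7 CPM in DHT libraries and 13.1, 15.8 and 25.9 CPM in Vehicle libraries (log2 fold change -0.04, edgeR adjusted p = 0.982). HLA genes are close paralogs, and the counts of HLA-C, HLA-E and TAPBP were not whole in any of the 12 libraries.

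Most members also varied between cultures, with the same replicate numbers high in both groups. Replicate 1 was the highest DHT library for 27 of the 43 members and the highest Vehicle library for 27, with 25 of them in both, and replicate 2 was the highest in both groups for 10. The same replicate number was highest in both groups for 35 of the 43 members, against 38.8% of all genes tested. The median deviation of the members from their own means over the 12 libraries was 0.35, -0.33, -0.39, -0.32, 0.10 and -0.09 on the log2 scale in DHT replicates 1 to 6 and 0.77, 0.09, -0.38, -0.30, 0.41 and 0.25 in Vehicle replicates 1 to 6. Over the 33 members with a mean of at least 5 CPM, the median within-group SD was 0.41 on the log2 scale, against 0.29 over 11755 genes at that level, and 9 of the 33 lay above the 90th percentile of those genes. The within-group SD was 1.41 for IFIT1, 1.34 for OAS1 and 1.33 for IFI6, but 0.27 for SP110, 0.20 for TAPBP and 0.19 for TRIM14.

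Within each replicate number, 38, 31, 25, 24, 31 and 39 of the 43 members were lower in the DHT library at numbers 1 to 6. Their median log2 difference was -0.32, -0.20, -0.05, -0.09, -0.40 and -0.32, while the median over all genes tested was between -0.04 and 0.01 at every number. Both directions were thus present at every number, and numbers 3 and 4, where the members were low in both groups, had the smallest shift. There were 9 members lower in the DHT library at all 6 numbers (7.38% of all genes tested were) and 1 higher, TRIM14 (8.76% of all genes tested were). The 9 were SP110, OAS1, IFIT1, IRF9, PARP9, SP100, TRIM21, TAPBP and HLA-B.

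**Figure D4:**
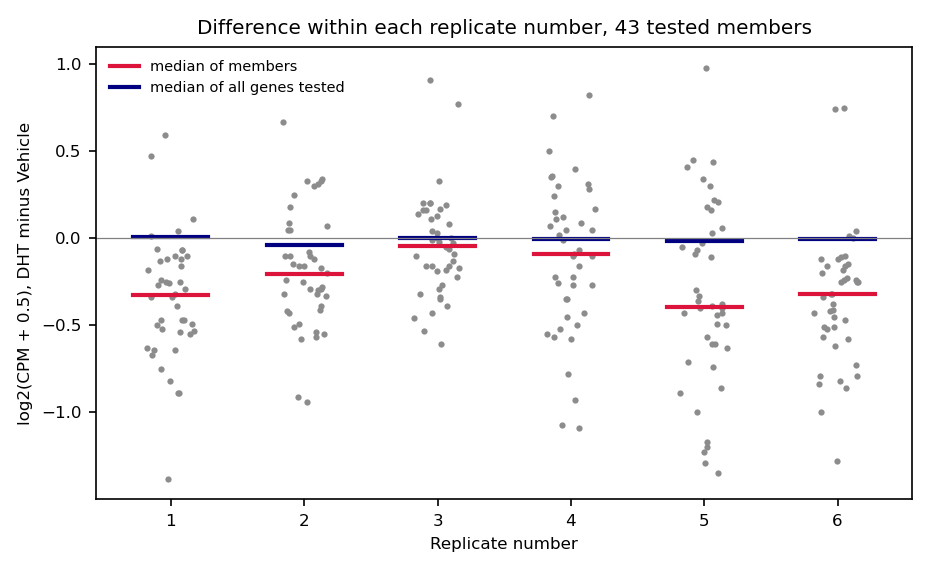
Difference in log2(CPM + 0.5), DHT minus Vehicle, within each replicate number; each grey point is 1 of the 43 tested members, and the bars are the median of the members and the median of all genes tested. The member median lies below the median of all genes at all 6 numbers, from -0.05 at number 3 to -0.40 at number 5.

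Without the block, the size of the shift moved most when 1 of the replicate 1 libraries was left out. These had the highest median level of the members in both groups. Leaving out Vehicle replicate 1 brought the median log2 fold change of the tested members to -0.10, with 31 below 0, against a median of -0.05 for all genes. Leaving out DHT replicate 1 instead moved the median the other way, to -0.40. With any other single library left out, the median stayed between -0.37 and -0.23. It was -0.30 without Vehicle replicate 5, the library with the highest mitochondrial share. Without both replicate 1 libraries it was -0.23, and without both replicate 2 libraries -0.29. For OAS1 and OAS2 the sign turned without Vehicle replicate 1, to log2 fold changes of 0.02 and 0.06, and for IFIT1 the value shrank to -0.31. Without DHT replicate 1 the log2 fold changes of OAS1, OAS2 and IFIT1 were -1.31, -1.53 and -1.55. Without both replicate 1 libraries they were -0.67, -0.64 and -0.96. SP110 and TRIM14 kept their calls with any 1 library left out, with log2 fold changes between -0.92 and -0.79 for SP110 and between 0.64 and 0.78 for TRIM14. Without both replicate 2 libraries SP110 (edgeR adjusted p = 0.00748) and TRIM14 (edgeR adjusted p = 0.00629) were still called. When both libraries of another number were removed, SP110 missed the threshold without replicate 6 (edgeR adjusted p = 0.0513), and TRIM14 missed it without replicate 3 (edgeR adjusted p = 0.0558) or replicate 6 (edgeR adjusted p = 0.0512). With the block, SP110, TRIM14, IFIT1 and OAS1 passed with each number left out, with an edgeR adjusted p of at most 0.0431 for IFIT1 and 0.0293 for OAS1. IRF9 held there without numbers 4 or 5 alone, OAS2 without numbers 2 or 5, and their largest edgeR adjusted p was 0.141 for IRF9 and 0.218 for OAS2. Removing number 5, whose libraries deviated in opposite directions, gave 15 lowered members (9.59% of all genes tested were lowered in that fit) and 2 raised (9.90% of all genes). The 15 were SP110, IFIT1, IFIT3, IFI6, OAS1, OAS2, OAS3, OASL, MX1, IRF1, IRF9, STAT2, PARP9, PARP14 and DTX3L, with HERC5 and TRIM14 raised, and no HLA gene among them. Removing any other number gave 3 to 6 lowered members, while 207 to 290 of all genes tested were lowered in those fits. In bulk RNA, fewer cells expressing a gene and less of its RNA per cell cannot be told apart.

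**Figure D5:**
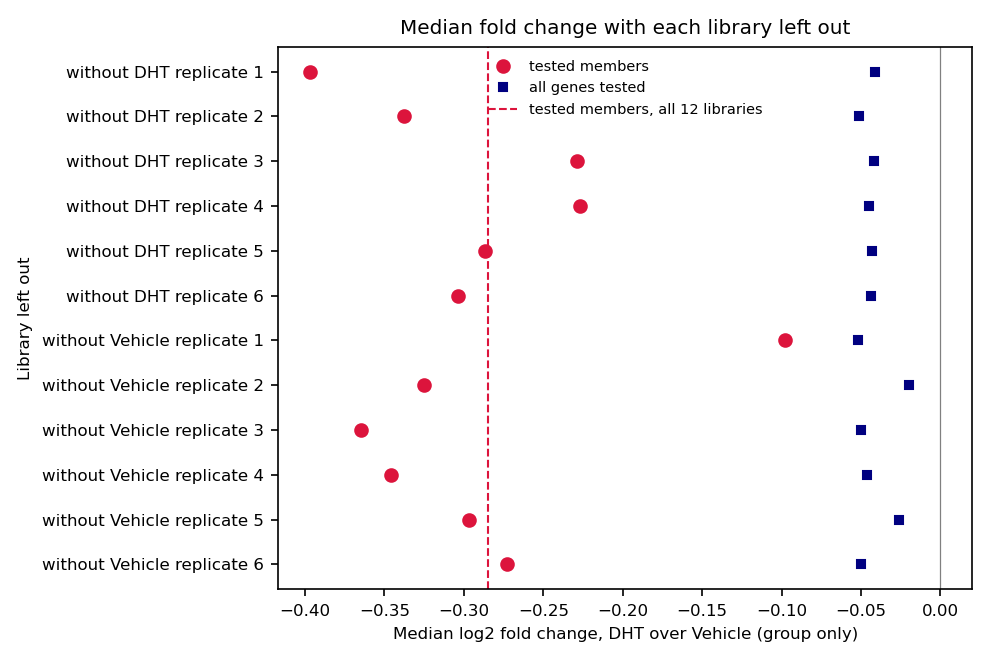
Median log2 fold change, DHT over Vehicle with group alone, over the tested members (circles) and over all genes tested (squares) when the library named on the vertical axis is left out; the dashed line is the member median with all 12 libraries. Without Vehicle replicate 1 the member median is -0.10, while the other 11 circles lie between -0.40 (without DHT replicate 1) and -0.23.

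Other genes of the pathway were counted from lists written from general knowledge. The 21 interferon ligand genes were too low to test: IFNB1 had 4 counts over the 12 libraries, IFNL1 16 and IFNL2 and IFNL3 10.8 each, and the other 17 had 0. Of 9 tested receptor, kinase and STAT genes, 0 were called by edgeR, DESeq2 or limma-voom with or without the block, 0 were past an unadjusted p of 0.05 in edgeR without it and 1 was lower with it. Among 13 tested genes of nucleic acid sensing, 1 was raised without the block, RNF125, a ubiquitin ligase that marks RNA sensors for degradation. It had 1.09, 2.0 and 2.67 CPM in DHT libraries and 0.427, 0.633 and 1.4 CPM in Vehicle libraries (log2 fold change 1.22, SE 0.304, edgeR adjusted p = 0.0465), a call lost when any of DHT replicates 1, 3, 4 and 5 or Vehicle replicates 1, 2, 5 and 6 was left out (edgeR adjusted p up to 0.122). With the block, RNF125 (1.3, edgeR adjusted p = 0.00535) and the signalling adaptor gene TRAF3 (0.42, edgeR adjusted p = 0.0307) were raised, and DDX58, the RNA sensor RIG-I (-0.40, edgeR adjusted p = 0.0244), and STING1, the adaptor of DNA sensing (-0.95, edgeR adjusted p = 0.0239), were lowered. The calls of TRAF3 and STING1 were lost with any number but 5 left out, and that of DDX58 without numbers 1, 3, 4 or 6.

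Of 12 tested inhibitors of interferon signalling, CISH, a SOCS family member, was lowered, with 32.2, 37.4 and 41.8 CPM in DHT libraries and 46.9, 52.6 and 73.3 CPM in Vehicle libraries (log2 fold change -0.56, SE 0.123, edgeR adjusted p = 0.025; -0.55 with the block, edgeR adjusted p = 0.00364). Its groups did not overlap, but the call without the block was lost when any of DHT replicates 1, 3, 4, 5 and 6 or Vehicle replicates 3 and 6 was left out (edgeR adjusted p up to 0.0764). Among 38 other interferon-stimulated genes tested, 2 were lowered without the block. GBP2, a guanylate-binding protein gene, had 2.76, 3.85 and 6.38 CPM in DHT libraries and 7.29, 9.18 and 15.5 CPM in Vehicle libraries (log2 fold change -1.21, SE 0.259, edgeR adjusted p = 0.021), and TNFSF10, the death ligand TRAIL, 6.02, 11.5 and 12.7 CPM in DHT libraries and 10.7, 21.4 and 24.1 CPM in Vehicle libraries (log2 fold change -0.92, SE 0.216, edgeR adjusted p = 0.0343). The GBP2 call was lost without DHT replicates 3, 4 or 6 (edgeR adjusted p up to 0.0583) and the TNFSF10 call without any 1 library except DHT replicate 2 and Vehicle replicate 2 (edgeR adjusted p up to 0.0928). With the block both passed with each number left out. SAMD9 was then lowered too (-0.60, edgeR adjusted p = 0.0276), a call lost with any number but 5 left out, and PNPT1, a mitochondrial RNA-degrading enzyme gene, was raised (0.49, edgeR adjusted p = 0.00396). The median log2 fold change of these 38 genes was -0.14. Of 18 other HLA class I pathway genes and 6 HLA class II pathway genes tested, 0 were called by edgeR, DESeq2 or limma-voom with or without the block. At an unadjusted p under 0.05 without the block, edgeR put 1 of the 18 lower and 0 of the 6.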

How the data were processed

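RNA was measured in 12 libraries, 6 of DHT-treated and 6 of vehicle-treated MDA-MB-453 cells. The submitters' processing notes name STAR, featureCounts and GRCh38. Versions, options and counting strand: not given in the sources used here. Both poly-A RNA and a total RNA kit are named in the labels. Since 39.6% to 46.7% of each library's nonzero values had a fractional part (tolerance 0.005), the authors' deposited values were taken as estimated counts and rounded; the planned test assumed raw counts. A record of 1 gene, broken over 3 lines, was left out. The authors' deposited table of their own comparison gives, per the file headers, log2 fold changes and average log2 CPM with p-values (raw and adjusted); it holds 14559 genes and calls 619 changed.

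Of the 47 members, 40 were matched to gene IDs through that table and 7 through a symbol table. edgeR 4.0.16 in R 4.3.3 was used with filterByExpr (16355 genes passed, 43 of them members), TMM scaling and a quasi-likelihood F-test, with group as the one term or with replicate number as a block. P-values were adjusted by Benjamini-Hochberg over all genes tested, with a threshold of 0.05, and log2 fold changes are DHT over Vehicle. CPM are counts over TMM-scaled totals, TPM use annotated exon length, and differences by replicate number use log2(CPM + 0.5). The test was checked on simulated counts with the same dispersion for every gene and no effect of replicate number. That check does not bear on the choice between the fits with and without the block. No 2 libraries shared equal counts in more than 1.1% of the genes tested. DESeq2 1.42.0 and limma-voom (limma 3.58.1), other scalings and filters, a threshold of 0.01 and each library left out were alternatives; unrounded counts and the blocked DESeq2 and limma-voom fits were added after seeing the data.

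Members, lists and named genes were chosen with earlier results of these data known. Full values are given for members past the threshold in either fit, the 3 with the highest and the 3 with the lowest log2 fold change (the third highest, TRIM25, is below 0), and STAT2, IRF1, IRF3, IRF7, IRF9, ISG15, IFI27, BST2, PSMB8, PSMB9, TAP1, TAPBP, HLA-B, HLA-C and HLA-E; other genes of the pathway lists are named where they passed in either fit, and FKBP5 checks the treatment. A further gene of that rule is not reported here. Depth limits members near 1 CPM, and the number of libraries limits the tests.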

Additional observations from a re-analysis of the deposited data

Results flagged for a closer look

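In 14 of 86 combinations of tested member and group, 1 library stood apart from the other 5. Its gap to the nearest of them passed Dixon's critical value on the CPM scale. The nominal level of that value, about 1 in 20 groups, does not hold here. CPM were not put on a log scale, which favours flags at the highest library, and the members share the same 12 libraries. The 14 are thus a description and no test. All 14 were in replicate 1 or replicate 2, and each was the highest of its group. In replicate 1, the DHT library was apart for IFI6 at 113 CPM (next 40.0 CPM), IFI44 at 11.2 CPM (next 3.61 CPM), OAS2 at 6.21 CPM (next 2.24 CPM) and OAS3 at 113 CPM (next 78.8 CPM). The Vehicle library of replicate 1 was apart for OAS2 at 12 CPM (next 4.09 CPM), OAS3 at 164 CPM (next 89.2 CPM), OASL at 11.3 CPM (next 5.18 CPM) and DDX60 at 27.6 CPM (next 9.93 CPM). In replicate 2, the DHT library was apart for IFITM2 at 32.1 CPM (next 17.8 CPM), IFITM3 at 1.96 CPM (next 0.988 CPM), HLA-C at 445 CPM (next 237 CPM) and HLA-E at 57.8 CPM (next 35.3 CPM). The Vehicle library of replicate 2 was apart for HLA-C at 501 CPM (next 262 CPM) and HLA-E at 82.2 CPM (next 39.3 CPM). OAS2, OAS3, HLA-C and HLA-E were apart in both groups, each at the same replicate number.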

How the results depend on the processing

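Members called raised (1) and lowered (1) without the block had the same counts under DESeq2, limma-voom, other scalings (RLE, upper quartile), filters (none, mean CPM of at least 1), an adjusted p under 0.01 and unrounded counts. The count of all genes called moved more: 764 raised and 522 lowered with the replicate block (1286 in all, 5 members lowered), 510 and 283 with DESeq2 (793), 90 lowered with no filter, 137 and 58 at an adjusted p under 0.01 (195), 879 and 574 with DESeq2 and the replicate block (1453, 4 members lowered, OAS2 not among them) and 761 and 531 with limma-voom and the replicate block (1292, 6 members lowered). With libraries or numbers left out, in either fit, all genes raised ranged from 116 to 1621, lowered from 51 to 1571 and in all from 167 to 3192; members raised ranged from 0 to 2, members lowered from 0 to 15 and the member median from -0.397 to -0.098. Same-numbered libraries deviated from their group means together at 5 numbers (correlations 0.515, 0.875, 0.438, 0.259 and 0.456 for numbers 1, 2, 3, 4 and 6) and apart at number 5 (-0.238), and 6 of 12 libraries correlated best with the library of their own number, so the data do not pair every number and the labels do not state a pairing.

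The sign was the same in all alternatives for 26 of the 43 tested members and changed in at least 1 for 17, none of them past the threshold without the block. Their log2 fold changes with libraries or numbers left out ranged from -0.207 to 0.030 for IRF3, -1.641 to 0.077 for IFI44, -0.788 to 0.251 for IFIT2, -0.249 to 0.105 for IFIT5, -0.404 to 0.073 for IFITM2, -0.176 to 0.011 for ISG20, -1.314 to 0.023 for OAS1, -1.529 to 0.056 for OAS2, -0.236 to 0.1 for IFIH1, -0.781 to 0.480 for DDX60, -0.586 to 0.583 for HERC6, -0.106 to 0.068 for TRIM25, -0.101 to 0.069 for USP18, -0.211 to 0.047 for PSMB8, -0.140 to 0.090 for TAP1, -0.389 to 0.163 for HLA-C and -0.486 to 0.005 for HLA-E. HERC6 was also above 0 with the replicate block (0.046), limma-voom (0.076) and DESeq2 with the replicate block (0.062). The cause of these changes was not tested. Depth limits IFIT3, PSMB9 and IFITM3, with medians near 1 CPM.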
